A study of Danio rerio with 2 samples.

Results

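The genes of the fibronectin, integrin and hyaluronan matrix were followed through the cell classes of the zebrafish tailbud. They were taken by symbol, as 9 of the 27771 genes counted: the fibronectins *fn1a* and *fn1b*, the integrin alpha subunits *itga5* and *itgav*, the hyaluronan synthase *has2*, the link proteins *hapln1a* and *hapln1b*, and the versicans *vcana* and *vcanb*. All 9 had UMIs (unique molecular identifiers, each standing for 1 captured transcript) in both libraries. The study asked how the cohesin subunit Stag2b affects the tailbud, and compared 1 single-cell RNA-seq library labelled AB wild type with 1 labelled *stag2b* nz207, both from dissected tailbuds at 16 hpf. The methods describe the mutant embryos as homozygous, the stage as matched and the tissue of each genotype as 1 pool of tailbuds. They name WIK as the wild-type line, so the strain behind the wild-type library is not settled, and strain and genotype cannot be told apart.

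Fibronectin is a secreted glycoprotein that cells assemble into fibrils through integrin receptors, of which the Itga5 heterodimer is the classical one and the Itgav heterodimers a second set. In the zebrafish tail, fibronectin matrix surrounds the presomitic mesoderm (PSM) and lines the somite boundaries. Hyaluronan is a long sugar polymer extruded by Has enzymes at the cell surface. Versican is a proteoglycan that binds hyaluronan, and link proteins of the Hapln family lock that bond. In the reference annotation of GRCz12tu each link protein gene lies beside a versican gene, *hapln1a* beside *vcana* and *hapln1b* beside *vcanb*, with *edil3a* and *edil3b* on the far side.

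With 1 library per genotype there is no replicate error, no test between genotypes and no p-value. Levels are CPM, UMI counts scaled to the same total in every class and library, of the UMIs summed over the cells of a class, with exact Poisson 95% intervals, and ratios carry exact conditional binomial 95% intervals. These intervals cover counting error alone. Levels are compared between classes and libraries for 1 gene at a time, since capture of transcripts may differ between genes. Where the UMIs of several genes are set together as a share, such a difference was not measured or corrected. Shares of cells with a UMI were taken in cells thinned to 5000 UMIs, with exact Clopper-Pearson intervals. Fewer expressing cells and less RNA per cell cannot be told apart in a summed count.

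After filtering, 17580 wild-type and 23492 *stag2b* nz207 cells were kept, with a median of 15361.5 and 13289.5 UMIs. Doublet calls took 2.80% of filtered wild-type cells and 8.55% of the *stag2b* nz207 cells, and 99 kept barcodes occurred in both libraries. Cells were classed by raw UMIs of marker genes that include none of the 9 genes, and a cell took a class when it passed exactly 1 gate. That placed 62.3% of wild-type and 60.7% of *stag2b* nz207 cells. Of 18 classes, 16 had at least 50 cells in both libraries, from 62 wild-type pronephros-like to 3831 *stag2b* nz207 anterior PSM-like cells, and in each at least 3 check markers were higher than in all other cells. Some check markers were lower than in other cells in both libraries, so these names are only partly borne out. Among them were *sox3* and *nkx1.2la* in NMP-like (neuromesodermal progenitor-like) cells, where 4 of 6 were higher. Others were *tbx6* in posterior PSM-like, *fgf8a* in mesoderm progenitor-like and *chrd* in *noto*+ notochord-like cells. The gates of the NMP-like, mesoderm progenitor-like and both notochord-like classes use *tbxta* and *noto*. The study reports *tbxta* as lower in mutant NMPs and *noto* as lower in the mutant notochord. Depth was also unequal, with a median of 18592 (wild type) and 16153.5 UMIs in NMP-like cells. A class may therefore hold different cells in each library. *noto*+ notochord-like cells were 7.60% of kept wild-type and 4.27% of kept *stag2b* nz207 cells. Shallow cells were held by 3 classes: erythroid-like cells had a median of 7136 and 5762 UMIs, posterior PSM-like cells 7317 and 7862, and periderm-like cells 5371 and 10382.5, wild type first. In these classes the median share of mitochondrial UMIs ran from 0.351 to 0.449% (wild type) and from 0.566 to 1.37% (*stag2b* nz207), beside 2.40% and 1.79% over all kept cells. The targeted gene *stag2b* stood at 108 CPM in the wild-type library and 59.6 CPM in the mutant library over all kept cells, a log2 ratio of -0.85, and was lower in 16 of 16 classes.

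The 9 genes were not all highest in the same class, though *has2*, *itga5* and *vcana* shared one. *fn1b* was highest in anterior PSM-like cells, *has2* and *itga5* in muscle-like cells, *itgav* in basal epidermis-like cells, *hapln1b* in pronephros-like cells and *vcana* in muscle-like cells, in both libraries. *fn1a*, *hapln1a* and *vcanb* had another highest class in each library, so 6 of 9 kept theirs. *vcanb* was close to silent. It had 239 UMIs in all kept wild-type cells and 363 in *stag2b* nz207 cells, and its highest level, in wild-type pronephros-like cells, was 6.66 CPM from 7 UMIs.

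**Figure D1:**
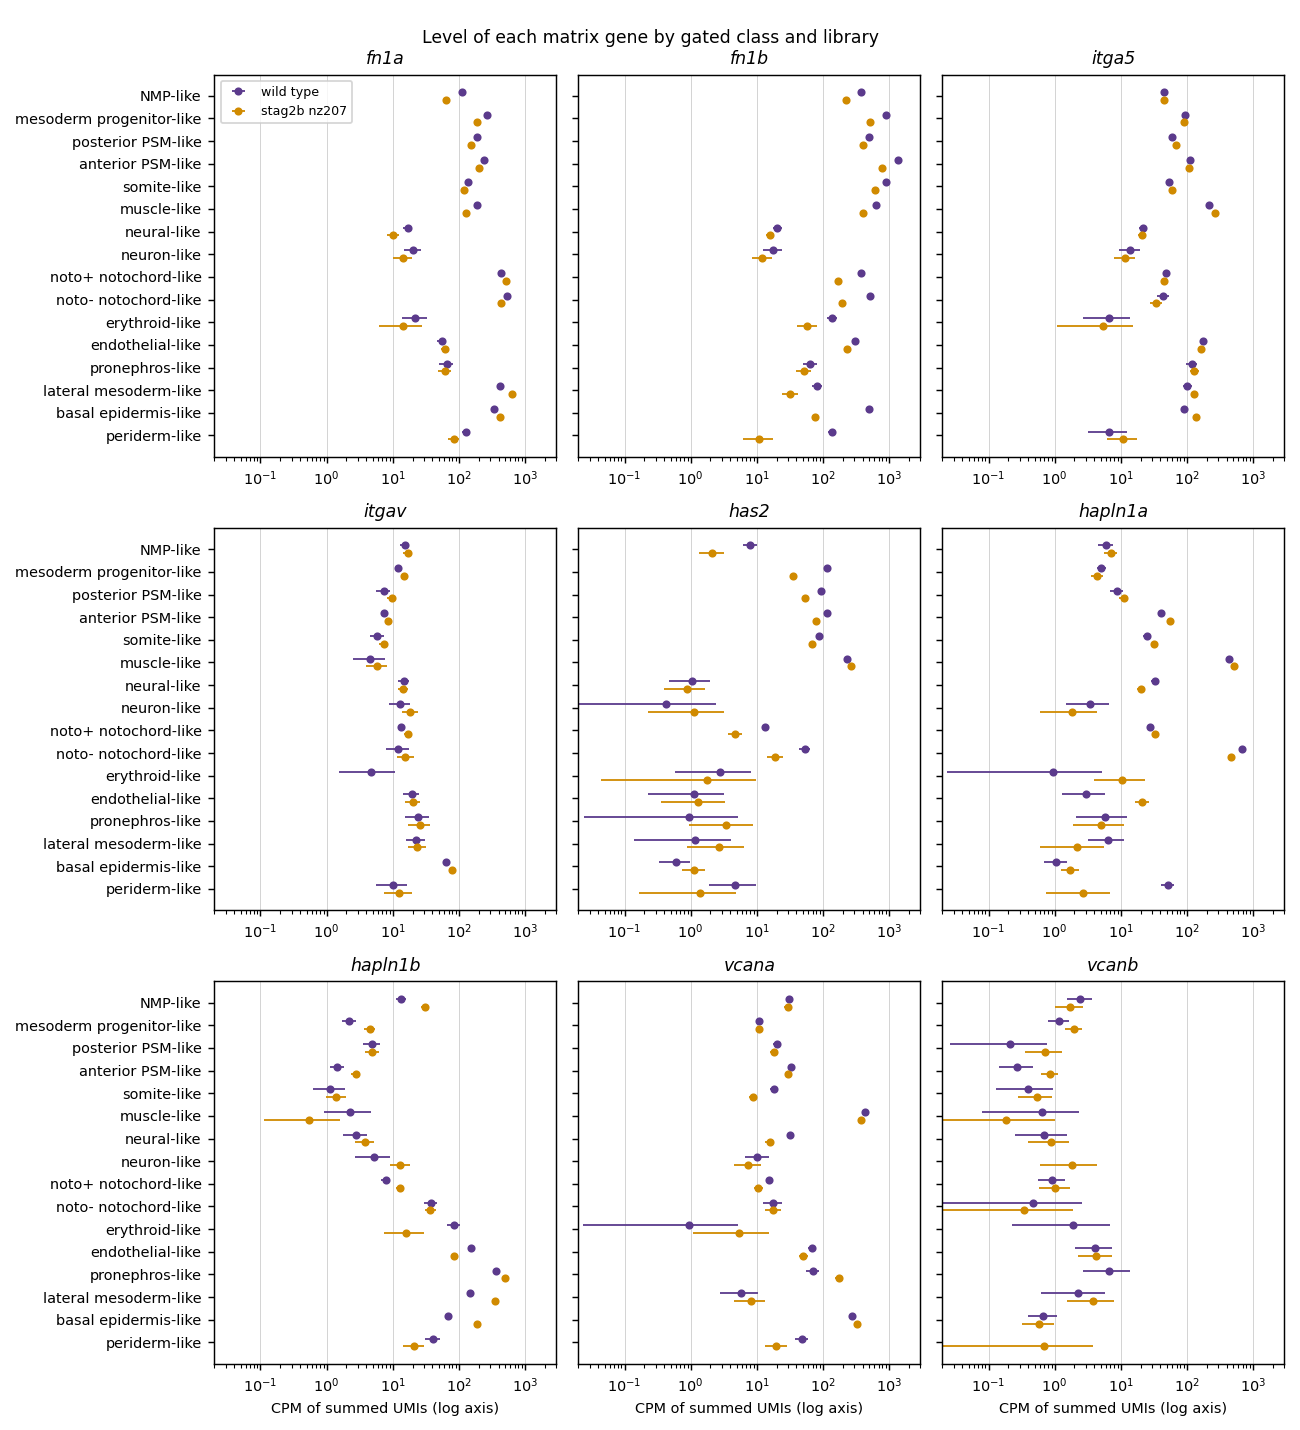
CPM of summed UMIs (log axis) for each of the 9 genes in 16 gated classes, wild type in purple and *stag2b* nz207 in orange; bars are exact Poisson 95% intervals for counting error and values of 0 are not drawn. *fn1b* peaks at 1370.3 CPM in wild-type anterior PSM-like cells, while *vcanb* stays under 7 CPM in each of the 16 classes.

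Differences between the libraries were read as called where CPM differed by more than 1.5-fold in a class with at least 100 UMIs of the gene over both libraries. Of 144 gene and class pairs 89 had that many UMIs. In *stag2b* nz207, 22 of these 89 pairs were lower past the fold, beside 6.83% of the pairs of all genes with as many UMIs. Of the 89, 9 were higher, beside 16.1% of the pairs of all genes. The 9 genes were chosen with earlier results of these data known, so this contrast is not a test. The 22 lower pairs were 10 of *fn1b*, 4 of *has2*, 3 of *fn1a*, 3 of *vcana* and 1 each of *hapln1a* and *hapln1b*. The 9 higher pairs were 6 of *hapln1b* and 1 each of *fn1a*, *itga5* and *vcana*. The median gene of a class was itself shifted by 0.04 to 0.29 on the log2 scale towards *stag2b* nz207, except in erythroid-like cells at -0.02.

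Class by class, the count of the 9 genes past the fold in either direction was as follows. In NMP-like cells (neuromesodermal progenitors) it was 3 of 7 with enough UMIs, where 19.2% of all genes passed. In mesoderm progenitor-like cells it was 3 of 8 beside 25.4% of all genes, and in posterior PSM-like cells 1 of 8 beside 31.5%. In anterior PSM-like cells it was 2 of 8 beside 27.7%, in somite-like cells 1 of 7 beside 25.3% and in muscle-like cells 1 of 6 beside 21.3%. In neural-like cells it was 3 of 6 beside 18.7%, in *noto*+ notochord-like cells 3 of 8 beside 21.6% and in *noto*- notochord-like cells 2 of 6 beside 16.5%. In endothelial-like cells it was 1 of 6 beside 17.4%, in pronephros-like cells 1 of 5 beside 22.9% and in lateral mesoderm-like cells 3 of 4 beside 17.3%. In basal epidermis-like cells it was 3 of 6 beside 25.1%, in periderm-like cells 3 of 3 beside 31.0% and in erythroid-like cells 1 of 1 beside 12.5%. Each of these shares rests on 1 to 8 genes.

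**Figure D2:**
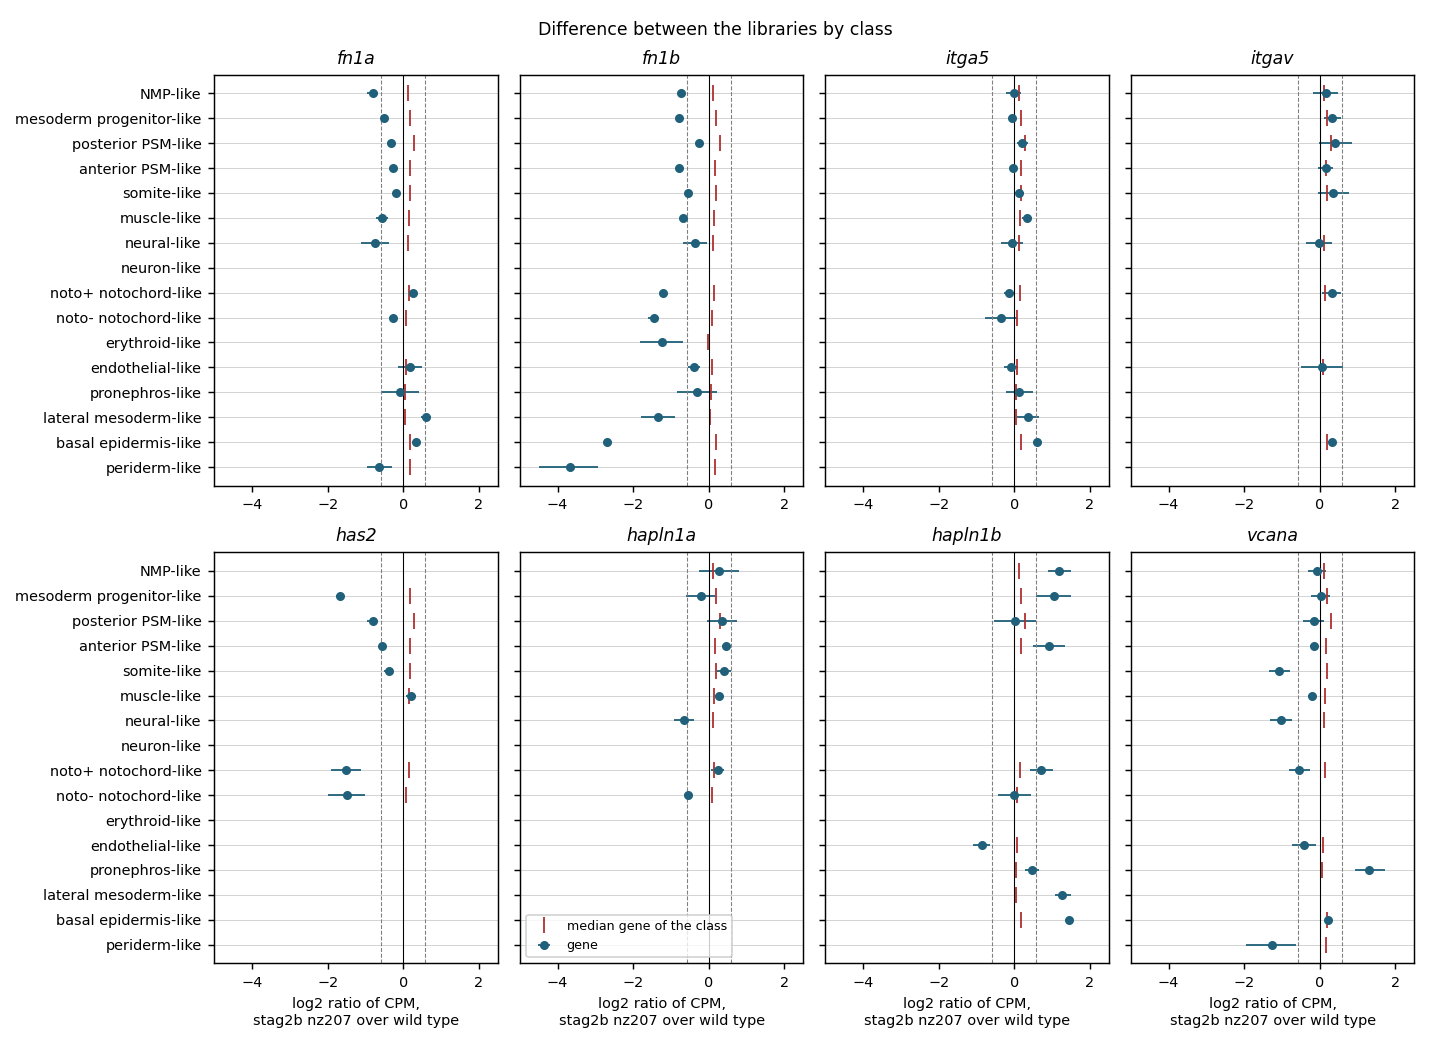
Log2 ratio of CPM, *stag2b* nz207 over wild type, for the 8 genes with at least 100 UMIs in a class over both libraries; bars are exact 95% intervals for counting error, red ticks the median gene of the class and dashed lines 1.5-fold. The points of *fn1b* lie left of the median gene in 15 of 15 classes, and the furthest, in periderm-like cells, is at -3.66.

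*fn1b* was the most widely lowered of the 9 genes. Over all kept cells its level was 660.5 CPM in the wild-type library and 382 CPM in the mutant library, a log2 ratio of -0.79. It was lower past the fold in 10 of 15 classes with enough UMIs, beside 6.83% of the pairs of all genes. Where *fn1b* had many UMIs its intervals, which cover counting error alone, are narrow. The interval lay below 0 in 14 of 15 classes, a count for which no share over all genes was taken. Those 14 include neural-like cells, where the gene was low (-0.37, interval -0.69 to -0.06). The neural-like ratio ran from -0.91 to 0.18 over the settings tried. In the reported setting no class had a ratio above 0, and in 15 of 15 it lay below the median gene.

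In the paraxial lineage *fn1b* was abundant in both libraries. Anterior PSM-like cells, which are about to form somites, had 1370.3 and 788 CPM, wild type first here and in all pairs of values that follow (log2 ratio -0.80, interval -0.81 to -0.78). Mesoderm progenitor-like cells had 905 and 519 CPM (-0.80), NMP-like cells 375 and 224 CPM (-0.74) and muscle-like cells 648 and 403 CPM (-0.69). Somite-like cells, at 908 and 623 CPM (-0.54), and posterior PSM-like cells, at 495 and 411 CPM (-0.27), stayed within the fold as reported. Over the settings tried these ratios ran from -0.69 to -0.33 and from -0.74 to -0.01, so both passed the fold in some. The share of thinned cells with a UMI was 66.7% and 53.3% in NMP-like cells and 91.4% and 78.5% in muscle-like cells. In thinned anterior PSM-like cells nearly all had one in both libraries (95.6% and 93.9%), and the median was 6 and 4 UMIs and the share with 3 or more was 87.8% and 68.7%.

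The notochord classes showed a larger difference. *noto*+ notochord-like cells, the progenitor end marked by the homeobox gene *noto*, had 385 and 168 CPM of *fn1b* (-1.20). *noto*- notochord-like cells had 526 and 192 CPM (-1.45, interval -1.60 to -1.31). Of all genes with enough UMIs, 3.13% had a lower ratio than *fn1b* in the first of these and 0.652% in the second. That share was 6.06% in anterior PSM-like cells, 7.46% in somite-like cells and 10.3% in posterior PSM-like cells. Over all kept cells it was 7.83%.

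The largest differences were in the skin. In basal epidermis-like cells, gated on *tp63* and *epcam*, *fn1b* was at 494 CPM from 12540 wild-type UMIs and at 76.0 CPM from 1813 mutant UMIs. That is 6.50-fold lower, a log2 ratio of -2.70 with an interval of -2.77 to -2.63, and 0.540% of genes had a lower ratio in this class. Among cells thinned to 5000 UMIs, 70.0% (67.3 to 72.6%) had a UMI in wild type and 23.8% (21.5 to 26.2%) in *stag2b* nz207, and 85.2% and 45.8% without thinning. The share with 3 or more UMIs was 38.1% and 2.86%. Both libraries held epidermal cells without a UMI, and the wild-type cells had a long upper tail that was thin in the mutant library. Neural-like cells, which should make little fibronectin, had a UMI in 7.58% of thinned wild-type and 7.54% of thinned *stag2b* nz207 cells, at a median depth of 16175 and 14598 UMIs before thinning. The level there, 20.6 and 15.9 CPM, was used as a low reference and was not shown to be background. Neuron-like cells were lower still at 17.6 and 12.2 CPM, as were periderm-like cells of *stag2b* nz207. The epidermal shares were above those of neural-like cells in both libraries. The epidermal cells had a median of 20180 and 15495 UMIs and 2.30% and 1.49% mitochondrial UMIs. In cells of 10000 to 20000 UMIs and in every other setting the epidermal log2 ratio lay between -2.91 and -2.45.

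**Figure D3:**
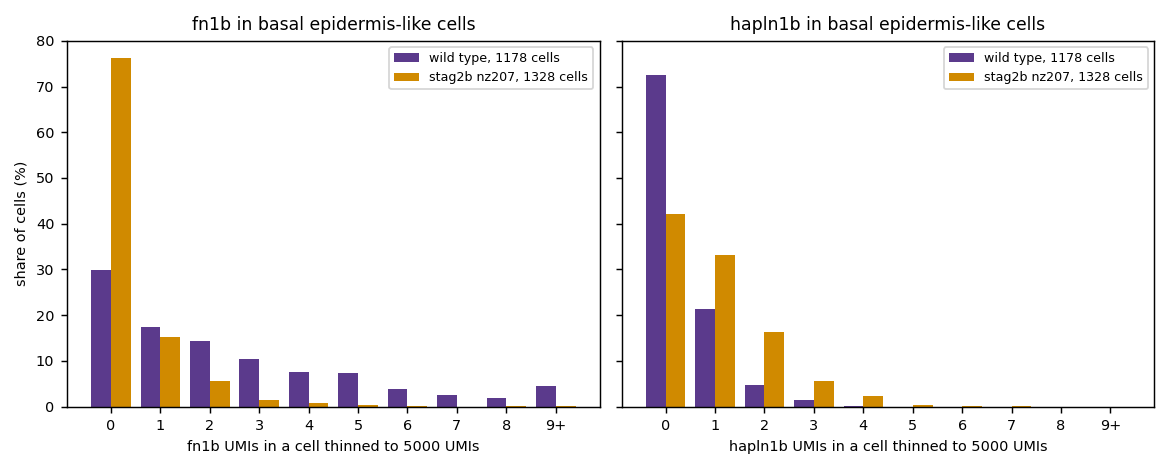
Share of basal epidermis-like cells (%) by UMIs of *fn1b* (left) and *hapln1b* (right) in cells thinned to 5000 UMIs, 1178 wild-type cells in purple and 1328 *stag2b* nz207 cells in orange. For *fn1b* 30.0% of wild-type and 76.2% of *stag2b* nz207 cells are at 0; for *hapln1b* the order is the other way round.

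Periderm-like cells, the outer layer over the basal epidermis, had 138 and 10.9 CPM of *fn1b* (-3.66, interval -4.50 to -2.93), from 205 and 16 UMIs. Few cells carry this value, since 1 wild-type cell held 50 of the 205 UMIs, and a UMI was seen in 14.9% of unthinned wild-type cells. The ratio ran from -4.40 to -1.67 over the settings tried, lower in each. Lateral mesoderm-like cells had 81.6 and 32.3 CPM (-1.34), and erythroid-like cells 138 and 58.4 CPM (-1.24). The erythroid-like value was -0.34 with gates on thinned cells and turned to 0.23 when cells were counted in every gate they passed. Endothelial-like cells, at 304 and 232 CPM (-0.39), and pronephros-like cells, at 64.7 and 52.1 CPM, stayed within the fold as reported. Other settings took these ratios down to -0.68 and -0.83, past it.

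The paralog *fn1a* did not follow the same pattern. In wild type it was highest in *noto*- notochord-like cells at 530.1 CPM, then in *noto*+ notochord-like cells at 442 CPM and lateral mesoderm-like cells at 423 CPM, and the intervals of the last pair overlapped. In *stag2b* nz207 lateral mesoderm-like cells came first at 645 CPM, followed by *noto*+ notochord-like cells at 524 CPM and *noto*- notochord-like cells at 439 CPM. The lowest class in both was neural-like, at 16.9 and 10.1 CPM.

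*fn1a* was lower in NMP-like cells, with 113 and 64.5 CPM (-0.81, interval -0.95 to -0.67). The share of thinned NMP-like cells with a UMI was 37.8% (33.6 to 42.3%) and 21.2% (18.0 to 24.7%), above the 6.39% and 5.13% of neural-like cells. Mesoderm progenitor-like cells had 269 and 190.0 CPM (-0.50), anterior PSM-like cells 244 and 201 CPM (-0.28) and muscle-like cells 190 and 129 CPM (-0.56), all within the fold as reported. Other settings took the mesoderm progenitor-like ratio down to -0.70 and the muscle-like ratio down to -0.86, past it. In the other direction, lateral mesoderm-like cells were just past the fold (0.61, interval 0.47 to 0.74), and just within it in 5 settings, down to 0.51 with TMM scaling. Basal epidermis-like cells, at 338 and 426 CPM (0.33), and *noto*+ notochord-like cells (0.25) were higher within it, the epidermal value being -0.01 in cells of 10000 to 20000 UMIs. So in the epidermis one fibronectin gene was much lower in the mutant library and the other was not. The called ratios in neural-like cells (-0.74) and periderm-like cells (-0.63) are less firm. The first comes from the class with the lowest *fn1a* level and was -0.22 without doublet removal, and the second turned positive in 4 settings.

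These values make the mix of the pair differ by class. *fn1a* gave 13.0% of the *fn1a* and *fn1b* UMIs in wild-type somite-like cells and 15.1% in anterior PSM-like cells, and 83.8% in lateral mesoderm-like cells. In *stag2b* nz207 its share was 16.0% in somite-like cells, 20.4% in anterior PSM-like cells and 95.2% in lateral mesoderm-like cells. It went from 53.4% to 75.7% in *noto*+ notochord-like cells, from 50.2% to 69.5% in *noto*- notochord-like cells and from 40.6% to 84.9% in basal epidermis-like cells. NMP-like cells, where both genes were lower, kept a similar mix of 23.2% and 22.3%, with overlapping intervals.

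**Figure D4:**
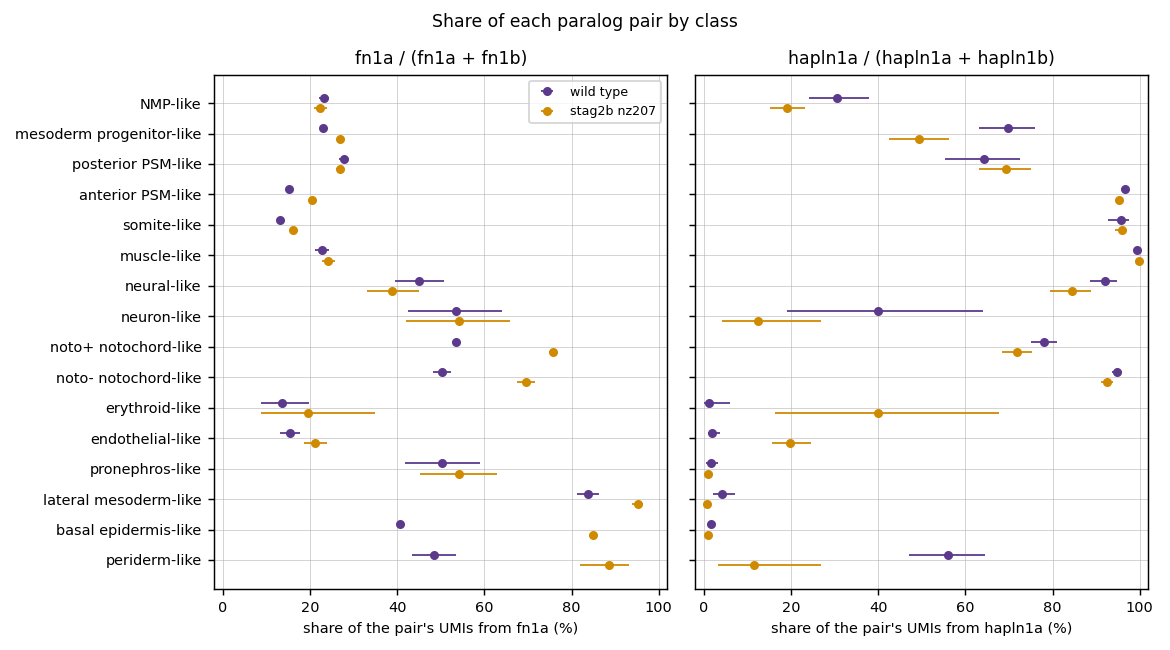
Share (%) of the summed UMIs of each paralog pair that came from *fn1a* (left) and *hapln1a* (right) by class, wild type in purple and *stag2b* nz207 in orange, with exact Clopper-Pearson 95% intervals. The *fn1a* share in basal epidermis-like cells is 40.6% in wild type and 84.9% in *stag2b* nz207. The *hapln1a* share is under 5% in basal epidermis-like, pronephros-like and lateral mesoderm-like cells of both libraries. It is over 90% in anterior PSM-like, somite-like, muscle-like and *noto*- notochord-like cells of both.

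The 2 fibronectin genes were often found in the same cell. In thinned mesoderm progenitor-like cells of wild type, *fn1b* was seen in 91.6% of cells with an *fn1a* UMI and in 66.0% of those without, and in *stag2b* nz207 in 85.9% and 72.7%. In basal epidermis-like cells there was no such link, with 70.4% and 69.3% in wild type and 22.8% and 25.5% in *stag2b* nz207. These shares describe cells of 1 library each.

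The fibronectin receptor subunit gene *itga5* differed little. It was highest in muscle-like cells at 214 and 269.9 CPM (0.33), followed by endothelial-like cells at 174 and 163 CPM. Pronephros-like cells had 119 and 131 CPM and anterior PSM-like cells 111 and 109 CPM (-0.03, interval -0.08 to 0.03). The counting interval for the anterior PSM-like class is narrow. In CPM the RNA of this 1 subunit stood level there in these 2 libraries, while *fn1b* did not. Set against the median gene of that class, *itga5* was at -0.19. Levels of the beta subunit genes that complete the receptor are given below. Neural-like cells were low at 21.9 and 21.0 CPM. Of 13 classes with enough UMIs only the basal epidermis-like class was past the fold, at 90.4 and 136 CPM (0.59, interval 0.51 to 0.67), just outside the limit. It was within the fold in 7 settings, with 0.14 in cells of 10000 to 20000 UMIs.

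*itgav* was highest in basal epidermis-like cells, though most of its UMIs lay elsewhere. That class held 1621 of the 4452 UMIs in kept wild-type cells and 1895 of the 5659 in *stag2b* nz207. Periderm-like cells were low at 10.1 and 12.3 CPM. *itgav* was at 63.9 and 79.5 CPM in basal epidermis-like cells (0.31) and in 24.7% and 31.7% of thinned cells. All other classes lay between 4.55 and 23.8 CPM in wild type, with 14 of 15 neighbours in that order overlapping in their intervals. None of the 9 classes with enough UMIs was past the fold.

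*has2*, the hyaluronan synthase detected here, had its highest levels in the paraxial lineage. In wild type it was at 8.01 CPM in NMP-like cells, 114 CPM in mesoderm progenitor-like cells, 95.4 CPM in posterior PSM-like cells, 117 CPM in anterior PSM-like cells, 88.9 CPM in somite-like cells and 232 CPM in muscle-like cells. In *stag2b* nz207 the same classes had 2.11, 35.9, 54.2, 79.2, 67.9 and 265 CPM. The gap was widest in the progenitors and was not seen in muscle. The log2 ratio was -1.67 (interval -1.78 to -1.56) in mesoderm progenitor-like cells, -0.82 in posterior PSM-like cells, -0.56 in anterior PSM-like cells, -0.39 in somite-like cells and 0.19 in muscle-like cells. Over the settings tried the anterior PSM-like ratio ran from -0.73 to -0.43 and the somite-like ratio from -0.76 to -0.16. Both passed the fold in some settings, and the order of these 2 classes is not settled. NMP-like cells had 76 and 22 UMIs, too few for a call, with a ratio of -1.92 (interval -2.68 to -1.22). Outside this lineage and the notochord the gene was under 5 CPM in the other classes used, as in neural-like cells at 1.04 and 0.869 CPM.

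In mesoderm progenitor-like cells 30.5% (28.3 to 32.7%) of thinned wild-type cells and 12.9% (11.3 to 14.6%) of *stag2b* nz207 cells had a *has2* UMI, and 49.6% and 22.3% unthinned. Neural-like cells had one in 0.399% and 0.603%. The posterior PSM-like class is the shallow one described above, and its ratio was -1.23 among cells with at least 1% mitochondrial UMIs and -0.55, within the fold, with thinned counts. The notochord classes showed a similar difference. *has2* was low in *noto*+ cells, at 13.4 and 4.71 CPM (-1.51), and stood at 53.7 and 19.0 CPM in *noto*- cells (-1.50). Of all genes with enough UMIs, 2.05% had a lower ratio in *noto*+ cells and 0.599% in *noto*- cells. The *noto*- value rests on 115 and 56 UMIs. That share was 1.68% in mesoderm progenitor-like cells and 8.84% in anterior PSM-like cells. Where a setting gave a value, the ratio lay between -1.67 and -0.98 in *noto*+ and between -1.59 and -0.79 in *noto*- cells.

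The 2 link protein genes were high in different classes among the 16 used. *hapln1a* was at 683 CPM in *noto*- notochord-like cells and 429 CPM in muscle-like cells of wild type, and at 465 and 517 CPM in *stag2b* nz207. The first ratio was -0.56 and the second 0.27, both within the fold as reported. Other settings took the first down to -0.66, past it. Anterior PSM-like cells had 41.1 and 55.9 CPM (0.44) and somite-like cells 24.6 and 32.4 CPM (0.40), while NMP-like cells were under 10 CPM in both. *hapln1a* was past the fold in neural-like cells alone, at 32.6 and 20.6 CPM (-0.66), where 5 settings ended the call and gates set on thinned cells gave 0.48. Single cells weighed on 2 low values: 72 of the 76 *hapln1a* UMIs in wild-type periderm-like cells and 44 of the 64 in *stag2b* nz207 endothelial-like cells came from 1 cell.

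*hapln1b* was at 371 CPM in wild-type pronephros-like cells, 155 CPM in endothelial-like cells, 149 CPM in lateral mesoderm-like cells and 69.4 CPM in basal epidermis-like cells. In *stag2b* nz207 these were 509, 85.3, 359 and 189 CPM. It was higher past the fold in basal epidermis-like cells (1.44, interval 1.36 to 1.52), lateral mesoderm-like cells (1.27) and NMP-like cells (13.4 and 30.3 CPM, 1.18). The other 3 classes past it were at low levels, with 2.21 and 4.54 CPM in mesoderm progenitor-like cells, 1.45 and 2.74 CPM in anterior PSM-like cells and 7.86 and 12.9 CPM in *noto*+ notochord-like cells. Endothelial-like cells went the other way (-0.86, interval -1.09 to -0.63), with -0.39 when cells were counted in every gate. *hapln1b* in mesoderm progenitor-like cells was at 0.43 without doublet removal, and in *noto*+ notochord-like cells at -0.25 with gates on thinned cells.

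The difference in *hapln1b* was also seen as a share of cells. Thinned basal epidermis-like cells with a UMI made up 27.6% (25.1 to 30.2%) and 58.0% (55.3 to 60.7%) of the class, lateral mesoderm-like cells 43.9% and 73.5%, and endothelial-like cells 34.7% and 12.5%. Without thinning the epidermal shares were 62.9% and 84.8%, and those of neural-like cells 2.57% and 2.54%. In pronephros-like cells the share, 59.0% and 42.3%, and the CPM ran in opposite directions, with overlapping intervals of the share. *hapln1a* gave 99.5% of the link protein UMIs of wild-type muscle-like cells, 96.6% in anterior PSM-like cells and 94.8% in *noto*- notochord-like cells. It gave 1.52% in pronephros-like and 1.51% in basal epidermis-like cells.

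*vcana*, the versican gene in use, was highest in muscle-like cells at 438 and 377 CPM (-0.22) and in basal epidermis-like cells at 282 and 327 CPM (0.22). In muscle-like cells its neighbour *hapln1a* was also high, and 68.4% of thinned wild-type and 71.1% of thinned *stag2b* nz207 cells had both. *vcana* was seen in 83.9% of wild-type muscle-like cells with a *hapln1a* UMI and in 82.1% of those without. In *stag2b* nz207 these shares were 83.4% and 64.0%. In basal epidermis-like cells *vcana* and *hapln1b* were both seen in 17.8% of wild-type and 39.8% of *stag2b* nz207 cells. There *vcana* was in 64.6% of wild-type cells with a *hapln1b* UMI and in 58.3% of those without, and in *stag2b* nz207 in 68.7% and 59.0%. A share with both also depends on how common each gene is alone. *vcana* was lower past the fold in somite-like cells (18.4 and 8.76 CPM, -1.07), neural-like cells (32.0 and 15.6 CPM, -1.03) and periderm-like cells (47.9 and 19.8 CPM, -1.28). It was higher in pronephros-like cells (70.4 and 174 CPM, 1.31), from 62 and 81 cells, where it was 0.44 with cells counted in every gate. That setting gave -0.58 in somite-like and -0.54 in neural-like cells, and gates on thinned cells gave -0.47 in periderm-like cells, all within the fold. In thinned pronephros-like cells 24.6% of wild-type and 30.8% of *stag2b* nz207 cells had a *vcana* UMI, a smaller difference than in CPM. NMP-like cells (30.8 and 29.3 CPM) and anterior PSM-like cells (33.6 and 30.1 CPM) were within the fold.

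Other genes of the same matrix were read from 4 lists, counted over gene and class pairs with enough UMIs. Of 26 integrin partners and adaptors, 23 of 181 pairs were lower past the fold and 33 higher. Of 18 fibronectin matrix partners found, 11 of 119 were lower and 14 higher. Of 21 genes for hyaluronan synthesis, breakdown and uptake, 9 of 55 were lower and 2 higher. The 9 lower pairs were 3 of *hyal2a*, 2 each of *cemip* and *cemip2* and 1 each of *stab2* and *habp2*. The 2 higher were of *hyal1*. *ugdh* was past the fold in 0 of 11 classes, and *has1* and *has3* had enough UMIs in none. Of 13 lecticans, link proteins and versican proteases 5 of 15 were lower and 1 higher. These 15 pairs were 11 of *adamts9*, 3 of *adamts15a* and 1 of *hapln3*, and no lectican had enough UMIs. The same background, 6.83% lower and 16.1% higher, applies to each list.

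In NMP-like cells none of the 7 list genes with at least 50 CPM was past the fold, beside 19.2% of all genes. Some genes under 50 CPM were. Of 16 integrin partners and adaptors with enough UMIs, 2 were lower and 2 higher. Of 4 hyaluronan genes 1 was lower and 0 higher, and of 10 fibronectin matrix partners 1 was lower and 1 higher. *itga4*, at 40.9 and 21.5 CPM, was among the lower. Among the 7 with at least 50 CPM, the highest ratios were of talin *tln1* (75.3 and 99.7 CPM, 0.41), the microfibril protein *mfap2* (0.35) and integrin-linked kinase *ilk* (0.26). The lowest were of nidogen *nid1b* (115 and 83.6 CPM, -0.46), syndecan *sdc4* (-0.39) and the hyaluronidase *cemip2* (-0.24). Of the 8 list genes with at least 50 CPM in *noto*+ notochord-like cells, the fibrillin gene *fbn2b* was past the fold (55.9 and 91.7 CPM, 0.72). It was followed by *tln1* (0.37) and *ilk* (0.30), and *nid1b* (-0.16), *sdc4* (-0.14) and *nid2a* (-0.04) were lowest of the 8. In somite-like cells focal adhesion kinase *ptk2ab* (62.9 and 108 CPM, 0.79) and *itga9* (97.9 and 150.4 CPM, 0.62) were past the fold and *mfap2* (0.58) just within it. Of the 6 genes at that level in somite-like cells only *nid2a* was lower (-0.25), while *sdc4* and *tln1* were both at 0.18.

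A few list genes were singled out after their values were seen. Over all gene and class pairs 6.83% were lower past the fold and 16.1% higher. The beta subunit *itgb1b* was lower past the fold in 7 of 10 classes with enough UMIs and went from 12.9 to 7.44 CPM over all kept cells (-0.79). Other beta subunits were mixed: *itgb1b.2* was lower in 3 of 3 classes and *itgb3a* in 1 of 1. *itgb1a* was higher in 2 of 8 and lower in 0, and *itgb5* higher in 4 of 9 and lower in 1. *itgb1b.1*, *itgb3b* and *itgb6* were past the fold in no class. *itga4*, whose product also binds fibronectin, was lower in 4 of 6 and went from 10.1 to 4.75 CPM (-1.09). *itga10* went from 2.36 to 24.9 CPM (3.40) and was higher in 9 of 9 classes, with ratios of 2.62 to 4.16. *hyal2a*, a hyaluronidase gene, was lower in 3 of 3 classes and went from 72.0 to 27.3 CPM in endothelial-like cells (-1.40). The further synthase genes *has1* and *has3* had at most 18 UMIs in either library, so *has2* gave nearly all hyaluronan synthase UMIs, and *ugdh*, which makes a sugar precursor, was level at 35.5 and 36.7 CPM (0.04).

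The pattern of each gene over the 16 classes was set beside that of 5833 genes by the correlation of log2(CPM + 10) in wild type, a description over classes that share a library. The closest genes were picked as the highest in wild type. Their wild-type values are therefore high by selection, and a lower value in *stag2b* nz207 is not read as a loss. The closest to *has2* were *pcdh8* (r = 0.98, and 0.95 in *stag2b* nz207), *myf5* (0.98 and 0.96) and *kcnj19a* (0.98 and 0.93). *pcdh8* encodes a paraxial protocadherin and *myf5* a myogenic regulator. The closest to *hapln1b* were *nav3* (0.95 and 0.93), *sb:cb1058* (0.94 and 0.90) and *anxa4* (0.94 and 0.78), and the closest to *itgav* were *junba* (0.92 and 0.74), *mid1ip1l* (0.92 and 0.85) and *limk2* (0.89 and 0.85). The closest to *hapln1a* were *hjv* (0.89 and 0.90), *bckdhb* (0.88 and 0.38) and *map1lc3cl* (0.86 and 0.63), and the closest to *vcana* were *hbegfa* (0.88 and 0.70), *plecb* (0.86 and 0.70) and *mrtfab* (0.86 and 0.82).

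The closest to *fn1a* were *asph* (0.87 and 0.81), *fkbp7* (0.85 and 0.79) and *gosr2* (0.84 and 0.74), and to *fn1b* *apoc1* (0.84 and 0.88), *lmo4a* (0.83 and 0.61) and *hipk3a* (0.81 and 0.78). For *itga5* they were *sh3glb1a* (0.87 and 0.82), *smad5* (0.87 and 0.74) and *si:ch211-107n13.1* (0.86 and 0.79). Those of *vcanb*, *errfi1a*, *rbpms2a* and *atp1b1a*, were at 0.91 in wild type and at most 0.30 in *stag2b* nz207, from very few UMIs. Among the 9 genes, *fn1b* and *has2* were at 0.75 in both libraries, and *hapln1b* and *vcanb* at 0.76 in wild type and 0.29 in *stag2b* nz207. *fn1a* and *fn1b* were at 0.66 and 0.39.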

How the data were processed

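The authors mapped reads with Cell Ranger 7.1.0 to GRCz11, counting intronic reads too. The deposited matrices hold raw UMI counts, not normalized, with no cell labels. The labels give 10x chemistry v2 and the methods another version. Following the methods, cells needed 200 genes, at most the 98th percentile of genes (the methods word this limit otherwise) and at most 15% mitochondrial UMIs. Doublets were called with Scrublet in Scanpy 1.11.5, not Solo. Each gene needed 3 cells. UMIs were summed per class with numpy 2.4.6, pandas 2.3.3 and scipy 1.17.1. The gates need 2 or more UMIs of most markers, with limits on other classes' markers. Doublet calls were removed before gating. Named genes were the 9 members, the 3 largest rises and falls among listed genes of at least 50 CPM in 3 classes, and the 3 closest genes by correlation. Further list genes were picked after their values were seen: *itgb1b* and the other beta subunits, *itga4*, *itga10*, *hyal2a*, *has1*, *has3* and *ugdh*. Genes behind the called pairs of the hyaluronan list and the pairs of the lectican list were also named. The members and lists were chosen with earlier results of these data known. The ratio step was run on simulated Poisson counts, which hold no variation between cells, libraries or gates. That run checks the calculation alone. Alternatives changed doublets, mitochondrial limits, gates, scaling, depth, the fold and the UMI minimum.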

Additional observations from a re-analysis of the deposited data

Results flagged for a closer look

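In 3 genes different classes were past the fold in opposite directions, and these differences between classes were not tested. The log2 ratio of *fn1a* was -0.81 in NMP-like cells and 0.61 in lateral mesoderm-like cells. That of *hapln1b* was -0.86 in endothelial-like cells and 1.44 in basal epidermis-like cells. That of *vcana* was -1.28 in periderm-like cells and 1.31 in pronephros-like cells, both small classes.

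Of the 2 classes too small for the comparisons, both held *hapln1a*, and the hypochord-like class also *hapln1b*, above the level in every class used. *hapln1a* reached 1355 CPM in the 42 floor plate-like cells of wild type and 971 CPM in the 37 of *stag2b* nz207. In hypochord-like cells it reached 2007 CPM (22 cells, wild type) and 2982 CPM (62 cells, *stag2b* nz207). *hapln1b* was at 795 CPM in hypochord-like cells of wild type and at 1498 CPM in those of *stag2b* nz207. In floor plate-like cells *hapln1b* was lower than that, at 62.3 and 51.5 CPM, and not above the classes used. The study used *hapln1a* as a marker of the hypochord, and it is in no gate here.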

How the results depend on the processing

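No paired analysis was possible because each genotype had 1 library. The 22 lower and 9 higher pairs became 14 and 3 with counts of thinned cells, where 60 pairs had enough UMIs, 12 and 5 at a fold of 2, and 36 and 25 with no minimum of UMIs. The higher pairs became 20 with cells counted in every gate and 4 in cells of 10000 to 20000 UMIs. TMM factors gave 29 lower and 6 higher pairs. Cells with at least 1% mitochondrial UMIs, an alternative chosen after seeing the data, gave 27 and 7. *fn1a* in periderm-like cells turned from -0.63 to 0.018 without doublet removal, 0.40 with gates on thinned cells, 0.00191 with cells in every gate and 0.35 as a mean of counts per 10000. Gates on thinned cells turned *hapln1a* in neural-like cells to 0.48 and *hapln1b* in *noto*+ notochord-like cells to -0.25, and counting cells in every gate turned *fn1b* in erythroid-like cells to 0.23. The cause was not tested. TMM has no value for the highest class of a gene. The other log2 ratios of the 9 genes past the fold kept their direction in every setting that gave a value. Ratios within the fold as reported could pass it in another setting. Among them were *hapln1a* in somite-like cells (up to 0.80) and *itga5* in muscle-like cells (up to 0.60). Genes under about 10 CPM, *vcanb* above all, are limited by depth.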
